A study of Mus musculus with 2 samples.

Results

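The liver is the main site where amino acids are broken down, and the enzymes of these routes were examined as mRNA in regenerating mouse liver. The 40 genes were named by their function, as enzymes that degrade tyrosine, tryptophan, histidine, glycine and serine, methionine and choline, the branched-chain amino acids, proline and ornithine, or lysine, together with aminotransferases of alanine and aspartate. All 40 were among the 34745 genes listed by the authors, and all 40 were among the 13561 genes with at least 10 reads over both libraries. The genes were chosen by function and not by their values, although earlier results of these data were known when the list was made.

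The study compared mice with a knockout of the microRNA miR-182 (KO) with wild-type (WT) mice. The KO library is labelled miRNA-182 KO, and its mice carried the knockout on 1 allele only, so they were heterozygous. The targeted gene, *Mir182*, was not analysed here, so the genotype was not checked on its own level. All mice were male, 8 to 10 weeks old, and all had undergone a 2/3 partial hepatectomy (PH), in which 70% of the liver was removed. Livers were taken on day 3, a phase of cell proliferation, and no library came from an unoperated liver. Each genotype was represented by 1 RNA-seq library of whole liver, and the number of mice behind a library is not stated in the sources used here. A difference between the libraries therefore has no replicate check, and the genotype cannot be told apart from mouse, day of preparation or library. All intervals below are exact 95% intervals that cover counting error only. A gene was called higher or lower when the libraries differed at least 2-fold.

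Amino acids that are not used for protein lose their nitrogen by transamination or deamination. The nitrogen passes to urea, and the carbon skeletons feed the citric acid cycle, glucose synthesis and ketone bodies. Many of these enzymes are made mainly by hepatocytes, and several, such as *Tat*, *Tdo2* and *Sds*, are known for their response to glucocorticoids, glucagon and dietary protein. The methionine and choline routes also supply methyl groups through S-adenosylmethionine, and the histidine and glycine routes feed the folate pool.

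MiR-182-5p is the mature microRNA that the knockout targets. It is shown here because its seed, bases 2 to 8, defines the target sites that were sought among the enzymes. In the RefSeq set for GRCm38.p6 it lies on the minus strand at chr6:30165962-30165986, and its seed is in capitals.
mmu-miR-182-5p: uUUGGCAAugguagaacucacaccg
The 3′ UTRs of GENCODE M21 held the complementary 7 bases, TTGCCAA, in 2 of 40 enzymes (5%), *Dmgdh* and *Mat1a*. Over all tested genes with a 3′ UTR the share was 11.9%, or 1496 of 12535. The enzymes had shorter 3′ UTRs, with a median of 800 bases against 1127. The 8-base form with a further A, TTGCCAAA, was in 0 of the 40 and in 4.97% of all. Both sites are printed with their flanks, with the 7 matching bases in capitals. The *Dmgdh* site is at chr13:93752713-93752719 on the plus strand, at position 248 of a UTR of 368 bases, and the *Mat1a* site at chr14:41123786-41123792 on the plus strand, at position 1181 of 1807.
*Dmgdh* site: acattaggtgtTTGCCAAtatgaaatcat
*Mat1a* site: caatcgacaagTTGCCAAgatctcatgag
The log2 fold change, KO over WT, was -0.75 for *Dmgdh* and -0.08 for *Mat1a*. A match of letters is a description and does not show that a site is used.

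The libraries were of nearly equal depth, with 13247497 reads in KO and 13163348 in WT. Reads on the genes of the mitochondrial genome, 13 of which encode proteins, made up 51.7% of the KO library and 31.0% of the WT library. This left fewer KO reads for all other genes. Libraries were therefore scaled by TMM, which placed the median log2 fold change of all tested genes at 0.00. On this scale a gene of equal level has 0.663 KO reads for each WT read, so a gene can have fewer reads in KO and still lie above 0. With total counts in place of TMM the median of all genes was -0.60. Less the median of all genes, the value of each enzyme under total counts differed from its TMM value by at most 0.0019. Of 6 hepatocyte markers, 5 were listed (*Alb*, *Apoa1*, *Ttr*, *Serpina1a* and *Fgb*), and their log2 fold changes lay between -0.07 and 0.23.

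As a group the enzymes were close to the middle of all genes. None of the 40 was at least 2-fold higher in KO, where 9.46% of all tested genes were (1283 of 13561). Lower by at least 2-fold were 2 of 40, *Acmsd* and *Gnmt*, against 9.94% of all tested genes (1348). The enzymes were well covered, with 197 to 78197 reads over both libraries. Among the 7317 genes with at least 197 reads, 9.44% were 2-fold apart in either direction, against 2 of the 40 enzymes. The median log2 fold change of the 40 was 0.03, with 21 above 0 and 19 below, and the values ran from -1.05 for *Acmsd* to 0.76 for *Prodh2*. Their values were spread less widely. The distance between their quartiles was 0.479, against 0.680 for the 7317 genes with at least 197 reads and 0.874 for all tested genes. Above that minimum the depth of the genes was not matched, so part of the difference in spread may come from depth. At a lower limit of 1.5-fold, 3 enzymes were higher (*Prodh2*, *Prodh* and *Bckdhb*) where 18.7% of all genes were, and 5 were lower (*Acmsd*, *Gnmt*, *Dmgdh*, *Cth* and *Mccc1*) where 19.4% of all genes were. The value of 27 enzymes was between -0.5 and 0.5. The counting interval lay above 0 for 16 enzymes, below 0 for 17 and across 0 for 7. At this depth an interval can leave out 0 at a very small difference, as for *Hpd* at 0.05 (0.01 to 0.08). The same share over all tested genes was not computed, so these counts mark read depth as well as difference.

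**Figure D1:**
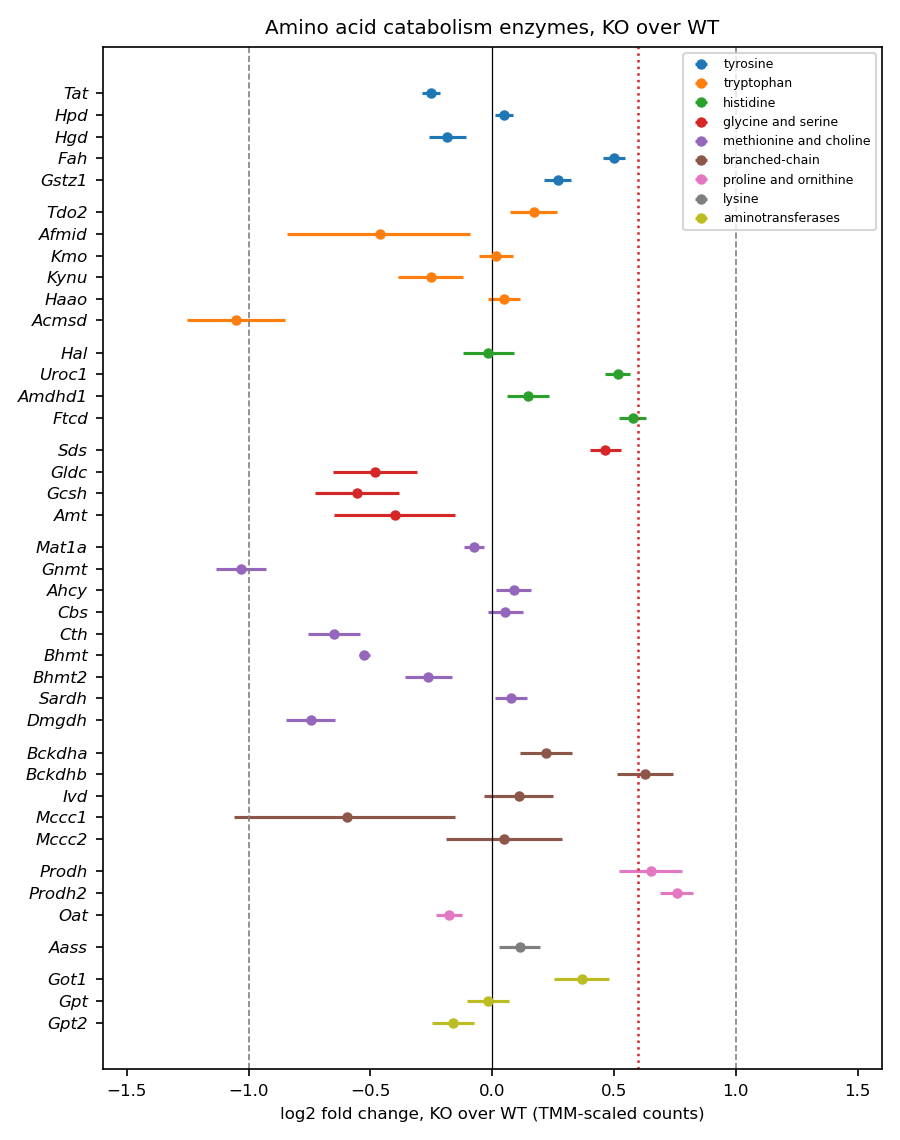
Log2 fold change (KO over WT, TMM-scaled read counts, horizontal axis) of each enzyme, coloured by amino acid. Bars are exact 95% counting intervals for 1 library per genotype, gray dashed lines mark a 2-fold difference, and the red dotted line at 0.60 is where 0 would lie with total counts. Only *Acmsd* (-1.05) and *Gnmt* (-1.03) lie beyond the left dashed line with TMM, and *Prodh2* (0.76) lies farthest right.

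The scaling decided the direction for many of the enzymes. With total counts 37 of the 40 were below 0, 18 of which were above 0 with TMM, and 10 were at least 2-fold lower where 26.6% of all tested genes were (3605). None was 2-fold higher, where 4.6% of all genes were (624). The 8 that joined *Acmsd* and *Gnmt* were *Afmid*, *Amt*, *Bhmt*, *Cth*, *Dmgdh*, *Gcsh*, *Gldc* and *Mccc1*. Of all genes 2-fold apart, 51.2% were lower with TMM and 85.2% with total counts. The raw share of reads on the 40 enzymes was 0.947% in KO (0.942% to 0.952%) and 1.51% in WT (1.499% to 1.512%). Without the mitochondrial genes the shares were 1.96% and 2.18%. *Bhmt* alone held 24665 of the 125466 reads on the 40 enzymes in KO and 53532 of 198159 in WT. These shares therefore lean on that gene and do not stand for the enzymes as a group. In whole liver, fewer cells of a type and less RNA per cell cannot be told apart. Each value below is a TMM value, relative to the middle of all genes.

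**Figure D2:**
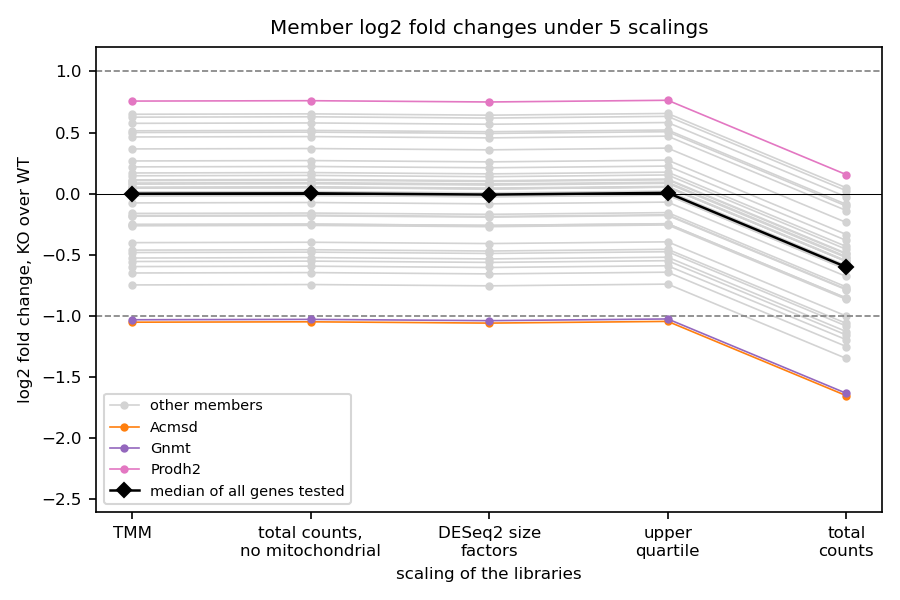
Log2 fold change (KO over WT, vertical axis) of each enzyme under 5 ways of scaling the libraries (horizontal axis), with 1 line per enzyme and the median of all tested genes as black diamonds. The first 4 scalings gave nearly the same values, with *Acmsd* and *Gnmt* just under the dashed 2-fold line at -1.0, and total counts moved each enzyme down with the median of all genes, to -0.60.

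Length-scaled levels (FPKM, computed by the authors with total counts) showed which enzymes were abundant. *Bhmt*, which remethylates homocysteine with betaine, had the highest level of the 40 in both libraries, 311 FPKM in KO and 679 in WT. *Tat* was next with 272 and 492 FPKM, followed by *Hpd* with 258 and 379. The lowest was *Mccc1*, a subunit of methylcrotonyl-CoA carboxylase, at 0.34 and 0.782 FPKM. Ranked by FPKM among the 40, *Gnmt* stood in place 9 in WT and place 17 in KO, and *Acmsd* in places 31 and 37.

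**Figure D3:**
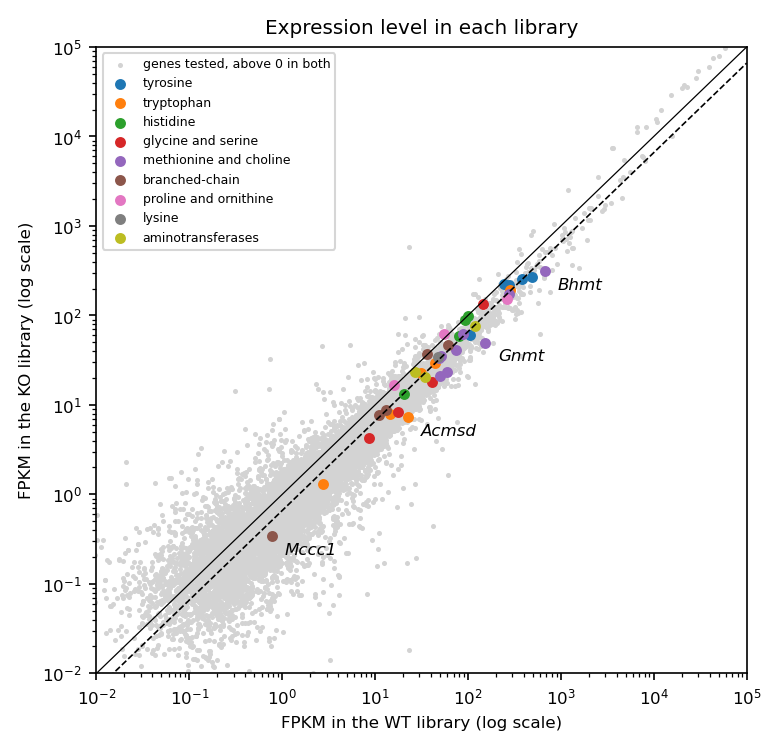
Level of each tested gene above 0 in both libraries (FPKM, log scales, WT on the horizontal and KO on the vertical axis), with the 40 enzymes in colour by amino acid. The solid line marks equal FPKM and the dashed line the median ratio of all tested genes with total counts (-0.60 on the log2 scale). The enzymes run along the dashed line from *Mccc1* to *Bhmt*, with *Gnmt* and *Acmsd* below it.

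The 5 tyrosine enzymes had a median of 0.05, and none was 2-fold apart. *Tat*, tyrosine aminotransferase, which carries out the first and usually limiting step, had 9212 reads in KO and 16534 in WT, a log2 fold change of -0.25 (-0.29 to -0.21). *Hpd*, hydroxyphenylpyruvate dioxygenase, had 9758 and 14245 reads and lay at 0.05 (0.01 to 0.08). *Hgd*, which opens the ring of homogentisate, had 2331 and 3992 reads and lay at -0.18 (-0.26 to -0.11). The later steps lay higher than the earlier ones. *Gstz1*, maleylacetoacetate isomerase, had 4794 and 6002 reads and lay at 0.27 (0.21 to 0.32). *Fah*, the hydrolase of the last step, which is lost in hereditary tyrosinemia, had 7444 and 7932 reads and lay at 0.50 (0.45 to 0.55). *Fah* and *Tat* held the highest and lowest values of the 5. The ratio of *Fah* to *Tat* reads, which no scaling can alter, was higher in KO by 0.75 (0.69 to 0.81) on the log2 scale. The interval does not allow for the choice of the pair. Outside the 40, *Qdpr*, which recycles tetrahydrobiopterin, had 1197 and 2675 reads and lay at -0.57.

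The 6 tryptophan enzymes had a median of -0.12. *Acmsd* (ENSMUSG00000026348, chr1:127729413-127767978, plus strand) was at least 2-fold lower in KO. It encodes the decarboxylase that draws an intermediate of the kynurenine pathway away from the synthesis of NAD. *Acmsd* had 272 reads in KO and 850 in WT, or 25.3 and 52.4 in TMM-scaled CPM, a 2.07-fold lower level in KO (log2 fold change -1.05, -1.25 to -0.85). The interval includes a 2-fold difference, so the counts alone do not place the gene firmly past it. The enzyme just before this branch was near 0. *Haao*, hydroxyanthranilate dioxygenase, had 3091 and 4505 reads and lay at 0.05 (-0.02 to 0.12), and the ratio of *Acmsd* to *Haao* was lower in KO, with a log2 difference of -1.10 (-1.31 to -0.89). *Tdo2*, the dioxygenase of the first step in hepatocytes, had 1520 and 2037 reads and lay at 0.17 (0.07 to 0.27). *Kmo*, kynurenine monooxygenase of the outer mitochondrial membrane, had 2849 and 4252 reads and lay at 0.01 (-0.05 to 0.08). *Kynu*, kynureninase, had 724 and 1300 reads and lay at -0.25 (-0.39 to -0.12). *Afmid*, the formamidase that yields kynurenine, had few reads, 90 and 187, and lay at -0.46 (-0.84 to -0.09). *Afmid* shares 62.4% of its 51-base words with the overlapping *Gm20708*, which had 739 and 1127 reads, so the division of reads between them is uncertain. Their summed counts gave -0.07. *Qprt*, which carries the pathway on to NAD, lay at -0.18 with 1285 and 2201 reads.

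The 4 histidine enzymes act in a row from histidine to a folate-bound one-carbon unit, and their median was 0.33, with none 2-fold apart. *Hal*, histidine ammonia lyase, had 1245 reads in KO and 1898 in WT and lay at -0.02 (-0.12 to 0.09). *Uroc1*, urocanase, had 6042 and 6376 reads and lay at 0.51 (0.46 to 0.57). *Amdhd1*, imidazolonepropionase, had 1883 and 2564 reads and lay at 0.15 (0.06 to 0.23). *Ftcd*, formiminotransferase cyclodeaminase, which hands the one-carbon unit to folate, had 4965 and 5022 reads and lay at 0.58 (0.52 to 0.63). So the first step was level between the libraries, and the last was above the middle of all genes. The ratio of *Ftcd* to *Hal* was higher in KO by 0.59 (0.47 to 0.71). *Hal* and *Amdhd1* are neighbours on chromosome 10 with 4033 bases between them, and their ratio differed by -0.16 (-0.30 to -0.03).

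Serine dehydratase and the glycine cleavage system lay on opposite sides of 0. *Sds*, which turns serine into pyruvate, had 3957 reads in KO and 4324 in WT and lay at 0.46 (0.40 to 0.53). The 3 members of the glycine cleavage system, a mitochondrial complex that splits glycine and charges folate, all lay below 0. *Gldc*, its decarboxylase, had 411 and 865 reads and lay at -0.48 (-0.65 to -0.31). *Gcsh*, its lipoyl carrier protein, had 406 and 899 reads and lay at -0.55 (-0.73 to -0.38). *Amt*, its aminomethyltransferase, had 204 and 406 reads and lay at -0.40 (-0.65 to -0.15). *Dld*, the dehydrogenase that the complex shares with the keto acid dehydrogenases, lay at -0.42 with 302 and 608 reads. None of these genes was 2-fold apart. The ratio of *Gldc* to *Sds* was lower in KO, with a log2 difference of -0.95 (-1.13 to -0.76). *Shmt1* and *Shmt2*, which interconvert serine and glycine, lay at 0.14 and 0.18.

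Methionine and choline breakdown was the largest group, with 9 enzymes and a median of -0.26. It held *Gnmt*, the other enzyme that was 2-fold lower, and 3 of the 5 that were 1.5-fold lower. *Gnmt* encodes glycine N-methyltransferase, an abundant hepatocyte enzyme that disposes of excess S-adenosylmethionine by methylating glycine. It had 1044 reads in KO and 3216 in WT, or 97.1 and 198 in TMM-scaled CPM, a 2.04-fold lower level in KO (log2 fold change -1.03, -1.13 to -0.93). As for *Acmsd*, the interval includes a 2-fold difference. The next value on the other side of the limit was that of *Dmgdh*, at -0.75. The enzymes beside *Gnmt* in the methionine cycle were near 0. *Mat1a*, which makes S-adenosylmethionine in adult hepatocytes, had 7343 and 11662 reads and lay at -0.08 (-0.12 to -0.03). *Ahcy*, which splits S-adenosylhomocysteine, had 2581 and 3662 reads and lay at 0.09 (0.01 to 0.16). *Ahcy* shares 76.9% of its 51-base words with *Gm4737*, and their summed counts gave 0.03. The ratio of *Gnmt* to *Mat1a* was lower in KO, with a log2 difference of -0.96 (-1.07 to -0.85).

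The promoter of *Gnmt* is printed because the gene was past the 2-fold limit. It is the RefSeq window of GRCm38.p6 at chr17:46729116-46729415, minus strand, with 62% G and C, and the 50 bases from the start on are in capitals.
*Gnmt* promoter: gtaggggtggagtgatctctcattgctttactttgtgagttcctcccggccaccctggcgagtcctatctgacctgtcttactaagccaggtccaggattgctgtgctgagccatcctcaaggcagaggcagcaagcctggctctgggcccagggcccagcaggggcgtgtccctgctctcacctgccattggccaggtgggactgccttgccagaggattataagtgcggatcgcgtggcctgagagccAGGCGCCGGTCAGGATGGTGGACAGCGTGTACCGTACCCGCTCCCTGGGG
It held no exact match to the 5 motifs that were sought in the promoters. Near matches, such as the TATAAG before its start, were not counted. *Gnmt* (ENSMUSG00000002769, chr17:46725664-46729168) overlaps *Gm26904* on the other strand, and *Acmsd* overlaps *2900009J06Rik* likewise. In all, 17 of the 40 enzymes overlap a gene on the other strand and 5 a gene on their own strand (*Hpd*, *Afmid*, *Cth*, *Mccc1* and *Oat*). The sources used here do not say whether reads were counted by strand, so reads of such pairs may not be told apart.

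In the betaine route, which remethylates homocysteine and breaks choline down to glycine, 4 of the enzymes were examined. *Bhmt* had 24665 reads in KO and 53532 in WT and lay at -0.53 (-0.55 to -0.50), the narrowest interval of the group. *Bhmt* shares 11.6% of its words with *Gm5096*, which had 2248 and 7770 reads and lay at -1.20, and their summed counts gave -0.60. *Bhmt2*, a related methyltransferase, had 1328 and 2401 reads and lay at -0.26 (-0.36 to -0.16). *Dmgdh*, dimethylglycine dehydrogenase, had 1092 and 2761 reads and lay at -0.75 (-0.85 to -0.64), a 1.68-fold lower level. *Sardh*, the sarcosine dehydrogenase that follows it, had 3200 and 4569 reads and lay at 0.08 (0.01 to 0.14). The successive steps therefore differed, and the ratio of *Dmgdh* to *Sardh* was lower in KO, with a log2 difference of -0.82 (-0.95 to -0.70). In transsulfuration, *Cbs*, which joins homocysteine to serine, had 2587 and 3759 reads and lay at 0.05 (-0.02 to 0.13). *Cth*, which releases cysteine, had 1003 and 2370 reads and lay at -0.65 (-0.76 to -0.54), and its ratio to *Cbs* was lower in KO, with a log2 difference of -0.70 (-0.83 to -0.57).

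*Bhmt*, *Bhmt2* and *Dmgdh* are neighbours on chromosome 13. *Bhmt* and *Bhmt2* lie on the minus strand with 17758 bases between them, and *Bhmt2* and *Dmgdh* start head to head with 130 bases between them. All 3 were below 0, and the ratio of *Dmgdh* to *Bhmt2* was nevertheless lower in KO, with a log2 difference of -0.48 (-0.63 to -0.34). The *Dmgdh* window of RefSeq is printed because it spans the whole gap. It lies at chr13:93674186-93674485, plus strand, with 68% G and C, and the 130 bases between the annotated genes are in capitals.
*Dmgdh* promoter: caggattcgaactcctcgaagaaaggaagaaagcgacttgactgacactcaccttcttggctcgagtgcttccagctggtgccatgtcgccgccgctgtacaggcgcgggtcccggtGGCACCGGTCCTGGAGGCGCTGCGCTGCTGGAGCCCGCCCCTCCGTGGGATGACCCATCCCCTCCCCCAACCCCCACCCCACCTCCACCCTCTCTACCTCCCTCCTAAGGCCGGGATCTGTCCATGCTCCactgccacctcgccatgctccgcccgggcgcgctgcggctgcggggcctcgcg
No exact match to the 5 motifs was in it. The RefSeq set held a promoter window for 35 of the 40 enzymes. Both strands were searched for the CRE TGACGTCA, the C/EBP site TTGCGCAA and the D-box TTATGTAA, and none was found in the 35. Of 27025 genes with a window, 2.03%, 0.207% and 1.11% held them. The E-box CACGTG was in 2 enzymes (*Cbs* and *Mccc2*), against 8.09% of all genes. The TATA box TATAAA was in 4 (*Hgd*, *Tdo2*, *Hal* and *Ftcd*), against 15.7% of all genes. Only in *Hal* and *Ftcd* did it lie near the usual place, at positions -28 and -29 from the start.

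The largest differences around the methionine cycle were in genes outside the 40. *Mat2a*, the S-adenosylmethionine synthetase of proliferating and extrahepatic cells, had 27 reads in KO and 310 in WT, a log2 fold change of -2.91 (-3.55 to -2.36). Its ratio to *Mat1a* was lower in KO, with a log2 difference of -2.85 (-3.48 to -2.28). In FPKM, *Mat1a* exceeded *Mat2a* 107-fold in WT and 772-fold in KO. *Ahcyl2*, a relative of *Ahcy*, had 91 and 20 reads and lay at 2.74 (2.07 to 3.56). Of the 18 other genes of this group, 5 lay above 0 and 13 below.

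**Figure D4:**
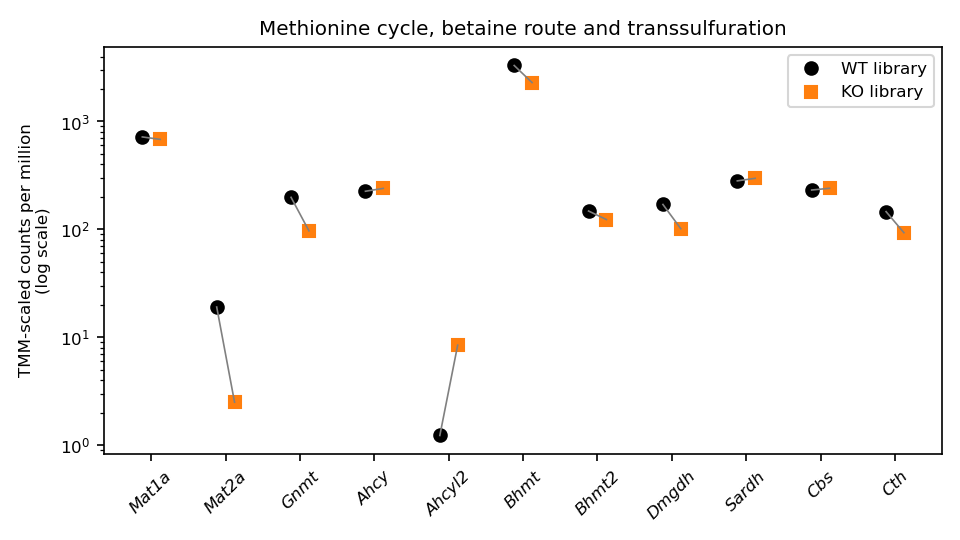
Level of 11 genes of the methionine cycle, the betaine route and transsulfuration in the WT library (black circles) and the KO library (orange squares), in TMM-scaled CPM on a log scale, 1 library each and so without error bars. The line of *Gnmt* falls from 198 to 97.1, those of *Mat1a*, *Ahcy*, *Sardh* and *Cbs* are nearly flat, and *Mat2a* and *Ahcyl2*, at low levels, differ most.

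The 5 branched-chain enzymes had a median of 0.11. The first committed step is taken by the branched-chain keto acid dehydrogenase, whose decarboxylase has 2 kinds of subunit. *Bckdha*, the alpha subunit, had 1259 reads in KO and 1630 in WT and lay at 0.22 (0.11 to 0.33). *Bckdhb*, the beta subunit, had 1240 and 1211 reads and lay at 0.63 (0.51 to 0.74), 1.54-fold higher in KO. The subunits thus differed, with *Bckdhb* over *Bckdha* higher in KO by 0.41 (0.25 to 0.56). *Ivd*, isovaleryl-CoA dehydrogenase of leucine breakdown, had 694 and 971 reads and lay at 0.11 (-0.03 to 0.25). The subunits of methylcrotonyl-CoA carboxylase lay apart as well. *Mccc1* had 60 and 137 reads, the fewest of the 40, and lay at -0.60 (-1.06 to -0.15). *Mccc2* had 249 and 363 reads and lay at 0.05 (-0.19 to 0.29). Outside the 40, *Bckdk*, the kinase that switches the dehydrogenase off, had 157 and 115 reads and lay at 1.04 (0.69 to 1.40), just past 2-fold with TMM and at 0.44 with total counts.

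The highest values belonged to proline breakdown. *Prodh2*, which oxidizes hydroxyproline, had 3791 reads in KO and 3380 in WT and lay at 0.76 (0.69 to 0.83), 1.69-fold higher in KO. *Prodh*, proline dehydrogenase, had 1016 and 976 reads and lay at 0.65 (0.52 to 0.78). Together with *Bckdhb* these were the 3 enzymes with more reads in KO than in WT, so they were above 0 with total counts too. *Prodh2* and *Prodh* did not differ beyond counting error, with a difference of 0.11 (-0.04 to 0.25). *Oat*, ornithine aminotransferase, whose product enters the proline route, had 4395 and 7499 reads and lay at -0.18 (-0.23 to -0.12). *Prodh2* over *Oat* was higher in KO by 0.94 (0.85 to 1.02).

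Lysine was represented by *Aass*, the enzyme of the first steps in mitochondria, with 1946 reads in KO and 2712 in WT, at 0.11 (0.03 to 0.20). The 5 other lysine genes lay above 0 with TMM, from 0.14 for *Gcdh* to 0.78 for *Phykpl*, and with total counts *Phykpl* alone did. Of the aminotransferases, *Got1*, the cytosolic aspartate aminotransferase, had 1175 and 1374 reads and lay at 0.37 (0.25 to 0.48). *Got2*, its mitochondrial partner outside the 40, had 2409 and 4938 reads and lay at -0.44 (-0.51 to -0.37), and the ratio of *Got2* to *Got1* was lower in KO, with a log2 difference of -0.81 (-0.94 to -0.68). *Gpt*, the cytosolic alanine aminotransferase, had 1784 and 2723 reads and lay at -0.02 (-0.10 to 0.07). *Gpt2*, the mitochondrial form, had 1816 and 3061 reads and lay at -0.16 (-0.25 to -0.08). The alanine pair thus lay closer together than the aspartate pair.

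The enzymes were also compared by compartment and by place in a route. The 16 mitochondrial enzymes had a median of 0.03 and the 24 others 0.02. The 9 enzymes counted as first steps had a median of 0.11, with 2 at least 1.5-fold higher and 0 lower. The 31 others, among them *Bckdha*, *Bckdhb*, *Oat*, *Got1*, *Gpt* and *Gpt2*, had a median of 0.01, with 1 higher and 5 lower. At the 1.5-fold limit 18.7% of all tested genes were higher and 19.4% lower. Over 78 further genes of the same routes, 72 were tested, with a median of -0.08, 30 above 0 and 42 below. Of these 72, 3 were at least 2-fold higher, *Ahcyl2* and *Bckdk* among them, and 2 lower, *Mat2a* among them, against the same 9.46% and 9.94% of all genes.

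Regulators known to drive these enzymes were also read. *Nr3c1*, the glucocorticoid receptor, had 354 reads in KO and 487 in WT (0.13). Of 5 of its targets, *Fkbp5* was 2-fold lower, with 122 and 370 reads (-1.01, -1.32 to -0.71), *Tsc22d3* lay at -0.46 and *Zbtb16* at -0.59, and *Per1* and *Klf9* lay at 0.67 and 0.77. None of the 10 other regulators was 2-fold apart, and 8 lay above 0, with *Gcgr*, the glucagon receptor, at 0.72 (4767 and 4372 reads), *Foxa2* at 0.61, *Cebpa* at 0.44 and *Hnf4a* at 0.05. Their median was 0.32. The gluconeogenic genes *Pck1* and *G6pc* lay at 0.49 and 0.32. Many enzymes of amino acid breakdown are known to differ in level between the portal and the central side of the lobule, and markers of these zones were compared. The 8 periportal markers had a median of 0.08 and the 8 pericentral markers 0.09, with none 2-fold apart. Within the periportal list the urea cycle genes differed, with *Cps1* at -0.63, *Ass1* at -0.51, *Arg1* at 0.09 and *Asl* at 0.25.

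Other features differed between the libraries too. Counts of markers 2-fold apart stand against the 9.46% of all tested genes that were higher and the 9.94% that were lower. In summed TMM-scaled CPM, the levels of the stellate cell markers were 121 in KO and 181 in WT, with 3 of 9 genes 2-fold lower, and those of Kupffer cells and macrophages were 101 and 136, with 2 of 6 lower. Endothelial markers summed to 64.9 and 80.1, with 1 of 6 lower. Cholangiocyte markers summed to 164 and 125, of which *Spp1* made up 152 and 116. Of these 5 markers *Krt19* (26 and 7 reads) and *Krt7* (15 and 6) were higher, on few reads, and *Sox9* lay at -0.31. Neutrophil markers summed to 30.8 and 29.0, with *Ly6g* at 0 in both. Lymphocyte markers summed to 1.58 and 0.925, on very few reads, with *Cd79a* at 12 and 4 and *Cd3e* at 0 and 3. Erythroid markers summed to 73.2 and 59.6. The erythroid genes went both ways, with *Alas2* 2-fold higher (1.22), *Hbb-bs* 2-fold lower (-1.05) and *Hba-a1* at -0.56. Hepatocyte markers summed to 53462 and 52352. Genes of the circadian clock differed widely. *Dbp* had 462 reads in KO and 62 in WT (3.48), *Nr1d1* had 534 and 129 (2.64), and *Arntl* had 50 and 218 (-1.52). The part of these features in the values of the enzymes was not tested.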

How the data were processed

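Poly(A) RNA of whole liver was sequenced on Illumina HiSeq instruments, 1 library per genotype. Genotype and 2/3 PH come from the labels; day 3 and the heterozygous state come from the study's text. The authors deposited raw read counts per gene, without normalization, and FPKM values scaled by gene length and total count. The submitters' processing notes name HISAT2 2.0.4, StringTie, edgeR and the build hg38, a human build, for these mouse data. The gene coordinates in the table are those of GRCm38, and 30 of 40 enzymes have the same coordinates in GENCODE M21. *Mir182* was not analysed here.

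A gene was tested when its counts in KO and WT summed to at least 10. Log2 fold changes were taken from TMM-scaled counts (factors 0.812 and 1.23) with a prior count of 0.5, in R 4.3.3 with edgeR 4.0.16. A call is a 2-fold difference, without a p-value. Intervals are exact (Clopper-Pearson) 95% intervals of the KO share of a gene's reads, and differences between genes are conditional odds ratios with exact 95% intervals (Python 3.11.15, scipy 1.17.1, pandas 2.3.3, numpy 2.4.6, matplotlib 3.10.9). With 13247497 and 13163348 reads, up to 3 counts were treated as the floor. The fold-change step was run on simulated counts with planted changes well past the 2-fold limit. Calls near that limit, and the difference in mitochondrial share, were not simulated.

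Every enzyme of the list is named with its values, and further genes of the same routes where at least 2-fold apart. *Qdpr*, *Qprt*, *Dld*, *Shmt1*, *Shmt2*, *Gcdh*, *Phykpl*, *Got2* and the KEGG pathways were named after their values were seen. The gene pairs whose ratios are given were not planned, and several set a high value of a group against a low one. The intervals of these ratios cover counting error and not that choice. Some genes of these routes are not reported here. The members, the lists and the alternatives were chosen with earlier results of these data known. MiRNA and promoter sequences are from RefSeq (GRCm38.p6), matched by name, and UTRs are the longest 3′ UTR per gene in GENCODE M21. Alternatives were total counts with and without the mitochondrial genes and their 7 nuclear copies, DESeq2 1.42.0 size factors, the upper quartile, the authors' FPKM plus 0.1, a prior count of 5, minima of 1 and 50 counts, an exact binomial test, the exact test of edgeR at a biological coefficient of variation set to 0.2 or 0.4, and a 1.5-fold limit.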

Additional observations from a re-analysis of the deposited data

How the results depend on the processing

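No paired analysis was possible because KO and WT have 1 library each, and leaving out a replicate was not possible either. The enzymes at least 2-fold lower stayed at 2 (*Acmsd* and *Gnmt*), those higher at 0, and the median at 0.02 to 0.05, with totals that leave out mitochondrial genes and copies, with the upper quartile, with DESeq2 size factors, at a prior count of 5 and with minima of 1 or 50 counts. The counts of 2 and 0 also held with the exact binomial test, where 1128 of all 13561 tested genes were lower and 1081 higher. With total counts 10 enzymes were lower and the median was -0.57, and with FPKM 9 were lower and the median was -0.57. Of all 13561 tested genes, 3605 (26.6%) were lower and 624 (4.6%) higher with total counts. With FPKM 2934 of them were lower and 405 higher. With edgeR's exact test and an assumed coefficient of variation of 0.2 or 0.4, 0 enzymes were lower, against 2 with no test. The calls over all 13561 tested genes fell as well, to 444 lower and 488 higher with 0.2. With 0.4 they fell to 58 lower and 59 higher. A 1.5-fold limit gave 3 higher and 5 lower, where 18.7% and 19.4% of all tested genes were. Of the 72 further genes, 3 higher and 2 lower became 1 higher and 19 lower with total counts, 1 and 16 with FPKM, 1 higher with a coefficient of 0.2, 0 and 0 with 0.4, and 8 lower at 1.5-fold. A minimum of 197 counts, chosen after seeing the data, left 1 lower, *Mat2a*, and 2 higher, without *Ahcyl2*, which has fewer reads. Of the 7317 genes that reach this minimum, 380 were lower and 311 higher. *Bckdk* was 2-fold higher with TMM and not with total counts or FPKM. *Mccc1*, *Afmid* and *Amt* had the fewest reads and the widest intervals of the 40.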

Other observations

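The authors' KEGG annotation holds 10 pathways of amino acid metabolism that match these routes by name, with 15 to 49 tested genes each. Over all tested genes, 9.46% were at least 2-fold higher and 9.94% lower. In tryptophan metabolism 5 of 32 genes were lower and 0 higher, and the lower genes were *Acmsd*, *Cyp1a1*, *Echs1*, *Ehhadh* and *Maoa*. *Echs1* and *Ehhadh*, enzymes of fatty acid oxidation, were also 2 of the 3 lower genes among 46 of valine, leucine and isoleucine degradation, with 0 higher, and 2 of the 5 lower genes among 49 of lysine degradation, with 1 higher. In glycine, serine and threonine metabolism 3 of 35 genes were lower (*Gnmt*, *Maoa* and *Psph*) and 2 higher, *Phgdh*, the first enzyme of serine synthesis, and *Alas2*, the erythroid enzyme of heme synthesis. In cysteine and methionine metabolism 2 of 39 were higher (*Ahcyl2* and *Ldhb*) and 0 lower. The annotation gives *Mat2a* no pathway, so it is not counted there. Each of the other 5 pathways had 2 lower genes and 0 to 2 higher ones. With total counts, where 26.6% of all tested genes were lower and 4.6% higher, the 10 pathways had 5 to 15 lower genes and 0 to 2 higher ones. The pathways share genes, so their counts are not independent of each other.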
